A study of Homo sapiens with 8 samples.

Results

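Receptor tyrosine kinases are cell-surface receptors that bind a ligand outside the cell and phosphorylate tyrosines inside it. The genes described here are those outside the ERBB family, together with 4 transmembrane kinases that resemble them (AATK, LMTK2, LMTK3 and STYK1). A fixed list of 39 gene symbols was matched to the symbol column of a table of 30434 genes. A row was found for 37 of the 39, and FLT3 and ROS1 had none. Of those 37, 22 had enough counts to be tested, among 16430 genes in all. The other 15 had at most 10 counts in any library and are given by their counts.

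The libraries came from SKBR3, a human breast cancer cell line with amplified ERBB2 (HER2), grown in DMEM with fetal bovine serum. There were 4 control libraries, whose genotype is labelled WT, and 4 libraries from a stable FOXA1 knockdown line. That line was made with lentiviruses carrying 3 short hairpin RNAs against FOXA1, a forkhead transcription factor that opens chromatin in luminal breast cells. The labels give neither the number of clones nor a control vector, so the hairpins, the viral transduction and any selection of the line cannot be told apart. Nothing in them says that replicates were separate cultures, so p-values measure the spread between these libraries, which may be technical. The question put by the series is what FOXA1 does in HER2-related pathways. The genes described here leave out the ERBB family and the Eph receptor kinases, and their signalling was not measured.

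Most receptor kinases work in the same way: ligand binding brings receptor chains together, the kinase domains phosphorylate one another, and adaptor proteins with SH2 or PTB domains dock on the phosphotyrosines and pass the signal to the MAPK and PI3K pathways. Families are set apart by their ligands: FGFs for FGFR1 to FGFR4, insulin and IGFs for INSR and IGF1R, HGF for MET, GAS6 and PROS1 for TYRO3, AXL and MERTK, and collagen for DDR1 and DDR2. In HER2-amplified breast cancer, receptors such as MET, IGF1R and AXL are known as alternative inputs to the same downstream pathways.

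Library totals ran from 19087878 to 23786684 counts, and 3 counts, the least that is read here as detection, were worth 0.123 to 0.153 CPM (CPM being a count divided by its TMM-scaled library total, times 1000000). FOXA1 itself had 4071 to 4397 counts in the control libraries and 83 to 92 in the knockdown libraries, which are 191.7 ± 1.65 and 3.96 ± 0.340 CPM (SD, n = 4 each). Control 3 lay farthest from its group: the SD of its deviations from the group mean, over 12420 genes, was 0.21 (log2 units), while the other 7 libraries had 0.15 to 0.19. All 10 epithelial and SKBR3 markers were detected, with 5 lower and 5 higher in knockdown. The 5 lower ones all fell at least 2-fold, ERBB2 from 7308 to 1340 CPM, while none of the higher ones rose that far. The summed level of the 10 markers was 19205 to 21377 CPM in control and 12197 to 13117 CPM in knockdown. Markers of other cell types were mixed. PTPRC, FAP and COL1A2 had at most 3 counts in any library, DCN and EMCN at most 1 and PECAM1 at most 6. The 6 endothelial markers, however, summed to 38.6 to 41.8 CPM in control, and COL3A1 (4.32 CPM) and TUBB3 (17.5 CPM) were higher in knockdown. The fibroblast and neural lists that hold these 2 genes each also had 1 marker called lower. The endothelial and haematopoietic lists each had 2 called lower and 1 higher.

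The receptor kinase genes changed in both directions in the FOXA1 knockdown libraries, in some families with both directions side by side. MST1R and IGF1R fell 16.7-fold and 5.23-fold. PTK7, MERTK, PDGFRB, FGFR1, FLT4, FGFR3, INSR, MET and ROR1 rose by between 2.40-fold (ROR1) and 17.8-fold (PTK7). TYRO3, DDR2, LMTK3, LMTK2, CSF1R and DDR1 fell by less than 2-fold. In RNA from bulk cultures, fewer cells that express a gene and less RNA per cell cannot be told apart.

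Of the 22 tested receptor kinases, 17 (77.3%) passed an adjusted p of 0.05 by edgeR's quasi-likelihood test, and 77.1% of all tested genes did so. The 8 lower calls stand beside 37.7% of all genes called lower, and the 9 higher calls beside 39.4% called higher. A change of at least 2-fold was called in 28.3% of all genes (13.4% lower and 14.9% higher), and in 2 receptor kinases lower and 9 higher. The median log2 fold change was 0.02 over the receptor kinases and 0.02 over all genes, whereas the median absolute values were 1.00 and 0.51. Levels of the groups did not overlap for those 17 genes, nor for 72.0% of all genes tested. For each of the 17, the exact two-sided permutation test over the 70 divisions of the libraries gave 0.0286, the smallest p it allows. FLT4 and PDGFRB passed the filter on low counts through the knockdown libraries alone, so their entry into the test already required the higher level there. Without control 3, the same 8 genes were called lower and the same 9 higher.

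**Figure D1:**
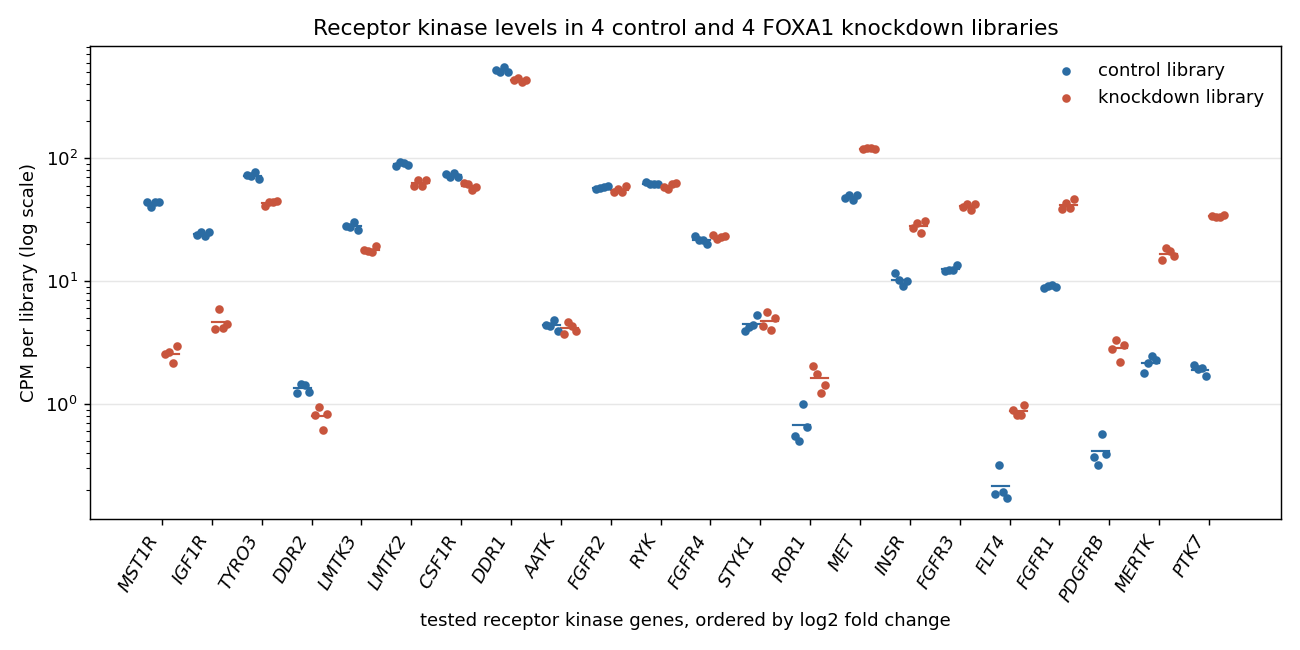
CPM of each tested receptor kinase gene (log scale) in the 4 control libraries (blue) and the 4 FOXA1 knockdown libraries (orange). Points are libraries and short lines are group means. The genes run from MST1R, 43.0 CPM in control and 2.57 CPM in knockdown, to PTK7, with a highest control library of 2.06 CPM and 33.8 CPM in knockdown, and the points of AATK, FGFR2, RYK, FGFR4 and STYK1 overlap between the groups.

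Promoter windows of the receptor kinases were read to show the sequence beside which these changes were seen. RefSeq on GRCh38.p14 held 60 windows, from 250 bases before to 50 after a transcript start, for 35 of the 39 genes. STYK1, FGFR1, INSRR and FLT4 were not matched. The forkhead letters TGTTTAC or TATTTAC, on either strand, were in 5 of the 60 windows (8.33%) and in 5.97% of all 35116 windows. Those windows belonged to PDGFRA, KDR, TEK, NTRK2 and AXL, each of which was below the count filter. None of the 36 windows of the 19 tested receptor kinases with a window held these letters. The GC-box letters GGGCGG, on either strand, were in 33 of the 60 (55.0%) and in 45.0% of all windows. Median GC content was 64.8% in the receptor kinase windows and 58.7% in all. Upstream sequence is printed for the receptor kinase that fell most (MST1R), the one that rose most (PTK7) and one with forkhead letters (KDR), 5′ to 3′ on the gene's strand, leaving out exons of the gene itself. Capitals mark the forkhead letters and GGGCGG or its reverse complement CCGCCC, 2 of which overlap in MST1R. The MST1R stretch (chr3:49903874-49904123, minus strand) holds 4 GC-boxes and an exon of the opposite-strand gene AC105935.1, the PTK7 stretch (chr6:43076064-43076267, plus strand) holds 1, and the KDR stretch (chr4:55125596-55125845, minus strand) holds 2 GC-boxes and 1 forkhead match.
MST1R: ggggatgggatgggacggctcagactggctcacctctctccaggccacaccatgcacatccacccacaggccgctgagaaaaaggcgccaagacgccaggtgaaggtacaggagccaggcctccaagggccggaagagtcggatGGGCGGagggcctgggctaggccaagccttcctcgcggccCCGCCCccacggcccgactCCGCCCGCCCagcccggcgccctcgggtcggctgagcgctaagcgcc
PTK7: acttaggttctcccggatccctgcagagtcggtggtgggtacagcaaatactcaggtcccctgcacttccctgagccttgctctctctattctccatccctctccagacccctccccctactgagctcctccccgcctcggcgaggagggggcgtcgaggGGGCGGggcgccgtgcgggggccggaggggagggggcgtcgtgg
KDR: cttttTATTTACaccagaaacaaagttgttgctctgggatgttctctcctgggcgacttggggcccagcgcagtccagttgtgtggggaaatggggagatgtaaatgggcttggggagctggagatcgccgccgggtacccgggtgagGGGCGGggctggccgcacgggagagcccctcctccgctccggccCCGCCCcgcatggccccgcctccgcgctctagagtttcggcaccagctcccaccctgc
These letters are a description of the windows and were not tested as binding sites.

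The MET family has 2 members, which moved in opposite directions. MST1R (RON, the receptor of macrophage-stimulating protein; ENSG00000164078.13, chr3:49887002-49903873) was at 44.0, 40.2, 43.8 and 44.0 CPM in the control libraries and at 2.55, 2.62, 2.14 and 2.96 CPM in knockdown. Every knockdown library was therefore far below every control library, with 5.97% of the control mean left. The log2 fold change was -4.06 ± 0.10 (SE; adjusted p = 2.94e-24). MET, the receptor of hepatocyte growth factor (HGF; chr7:116672390-116798386), was at 47.9, 50.6, 46.0 and 50.5 CPM in control and at 117.9, 121.9, 120.4 and 119.5 CPM in knockdown. Its log2 fold change was 1.30 ± 0.035 (adjusted p = 8.8e-20), and no control library reached the level of any knockdown library. On a per-length scale, MET made up 45.8% ± 1.97 of the summed level of the pair in control and 97.2% ± 0.364 in knockdown (SD, n = 4). HGF had no row in the table. MST1, which encodes the MST1R ligand, was at 4.46 CPM in control and 5.51 CPM in knockdown (log2 fold change 0.31, adjusted p = 0.00997, but 0.0672 in DESeq2), and its reads are uncertain because near-identical gene copies exist.

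Both ligands are made as inactive precursors that serine proteases cleave. Of 7 listed proteases and inhibitors, 5 were tested, 4 fell and 1 rose, where 37.7% of all genes were lower and 39.4% higher. TMPRSS13, a membrane serine protease, was at 75.0 ± 3.87 CPM in control and 8.67 ± 1.07 CPM in knockdown (log2 fold change -3.11, adjusted p = 4.84e-23). ST14 (matriptase) went from 342.4 to 144.8 CPM (-1.24 on the log2 scale) and its inhibitor SPINT1 from 485.1 to 224.6 CPM (-1.11). SPINT2 fell by 0.18 on the log2 scale. FURIN, a proprotein convertase, was the gene that rose, from 52.7 to 140.6 CPM (log2 fold change 1.42).

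Among the FGF receptors, which bind fibroblast growth factors with heparan sulfate, FGFR1 and FGFR3 rose, while FGFR2 and FGFR4 did not pass the test. FGFR1 (chr8:38400215-38468834) was at 8.79, 9.17, 9.26 and 8.88 CPM in control and at 38.9, 43.3, 39.3 and 46.2 CPM in knockdown (log2 fold change 2.22 ± 0.062, adjusted p = 2.54e-20). FGFR3 (chr4:1793293-1808872) was at 12.1, 12.4, 12.4 and 13.4 CPM in control and at 39.8, 42.6, 38.0 and 42.7 CPM in knockdown (log2 fold change 1.69 ± 0.052, adjusted p = 5.88e-19). In both genes the lowest knockdown library was more than 2-fold above the highest control library. FGFR2 was at 56.5, 57.0, 58.0 and 59.5 CPM in control and at 53.0, 56.6, 53.2 and 59.6 CPM in knockdown, so that the groups overlapped (log2 fold change -0.06, adjusted p = 0.276). Under upper-quartile and library-size scaling its sign turned, to 0.0043 and 0.029. FGFR4 was at 21.6 ± 1.35 and 23.0 ± 0.836 CPM (log2 fold change 0.09, adjusted p = 0.163). It was called higher under upper-quartile scaling (0.15, adjusted p = 0.0224) and library-size scaling (0.17, adjusted p = 0.00845). FGFR1 shares 138 bases of exon with LETM2 on the opposite strand, 1.00% of its exon length, and LETM2 averaged 16.4 counts.

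Per exon length, the share of each FGF receptor in the family's summed level differed between the groups. FGFR2 held 49.7% ± 1.08 in control and 31.2% ± 0.505 in knockdown. FGFR3 held 16.9% ± 0.765 and 35.7% ± 0.736, and FGFR1 held 4.25% ± 0.122 and 12.9% ± 0.509. FGFR4 accounted for 29.1% ± 1.82 and 20.2% ± 1.21. With the longest transcript as the length, FGFR2 stayed above FGFR3 in knockdown (35.3% and 25.5%), so the order of these 2 genes depends on the length used.

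Only 5 of 22 FGF ligand genes were tested, and 3 rose while 2 did not pass, so that 60% were called, beside 77.1% of all genes. FGF12 and FGF13 passed the filter through the knockdown libraries alone, which already required a higher level there. FGF13, an intracellular FGF that does not act as a classical receptor ligand, went from 0.250 to 4.29 CPM (log2 fold change 4.07, adjusted p = 3.74e-15). FGF12, of the same intracellular group, was at 0.380 and 1.84 CPM (2.24), and FGF1, a ligand of all FGF receptors, at 3.79 and 5.19 CPM (0.45, adjusted p = 0.000608). FGFRL1, an FGF-binding receptor without a kinase domain, rose from 0.603 ± 0.0702 to 11.0 ± 0.899 CPM (log2 fold change 4.18, adjusted p = 2.2e-19). KL (klotho), the co-receptor that lets FGFR1 respond to the hormone FGF23, had 328 to 366 counts in control and 1 or 2 counts in knockdown. Its ratio, control over knockdown, was 284 (95% counting interval 122 to 877), and it passed the filter through the control libraries alone.

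The insulin receptor family also moved in opposite directions. IGF1R, the receptor of IGF1 and IGF2 (chr15:98648539-98964530), was at 23.8, 25.1, 23.3 and 25.1 CPM in control and at 4.08, 5.90, 4.13 and 4.49 CPM in knockdown. The log2 fold change was -2.38 ± 0.13 (adjusted p = 3.29e-18), and no library of one group came near the other group. INSR, the insulin receptor (chr19:7112255-7294034), was at 11.7, 10.2, 9.07 and 10.0 CPM in control and at 27.1, 30.0, 24.6 and 31.0 CPM in knockdown (log2 fold change 1.46 ± 0.11, adjusted p = 2.62e-13). Per exon length, IGF1R was 64.1% ± 2.44 of the summed level of IGF1R and INSR in control and 11.0% ± 1.37 in knockdown. INSRR, an orphan relative, had at most 1 count in any library.

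Of 21 listed adaptors that dock on these and other receptors, 17 were tested, 15 rose, 1 fell and FRS3 did not pass (adjusted p = 0.267). Over all genes tested, 39.4% were higher and 37.7% lower. DOK7, like GRB14, passed the filter through the knockdown libraries alone. The median log2 fold change was 1.69 over the list and 0.02 over all genes. IRS1, the main substrate of IGF1R and INSR, was the gene that fell, from 14.4 ± 0.616 to 6.04 ± 0.228 CPM (log2 fold change -1.25, adjusted p = 1.48e-13). IRS2 was at 1.23 and 3.46 CPM (1.49). GRB10, which binds the insulin and IGF1 receptors and dampens their signal, rose from 32.5 ± 0.677 to 255.9 ± 7.94 CPM (log2 fold change 2.98, adjusted p = 1.67e-27). GRB14, a close relative of GRB10 that passed the filter through the knockdown libraries alone, was at 0.438 and 4.37 CPM (3.29), and the phospholipase PLCG2 at 1.23 and 9.71 CPM (2.97).

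The TAM receptors bind GAS6 and PROS1, which bridge them to phosphatidylserine on dying cells. TYRO3 (chr15:41557675-41583586) was the prominent member in control, at 73.0, 71.9, 77.0 and 67.7 CPM, and was at 40.8, 44.2, 43.8 and 45.1 CPM in knockdown. It fell by 0.73 on the log2 scale (SE 0.049, adjusted p = 3.31e-13). MERTK (chr2:111898479-112029561) was at 1.79, 2.13, 2.47 and 2.28 CPM in control and at 14.7, 18.6, 17.5 and 16.1 CPM in knockdown. It rose by 2.94 ± 0.12 on the log2 scale (adjusted p = 2.08e-18), so that its per-length share of TYRO3 plus MERTK went from 6.52% ± 0.828 to 47.2% ± 1.95. AXL stayed at the limit of detection, with 1, 0, 3 and 7 counts in control and 1, 4, 3 and 3 in knockdown. Its ratio, knockdown over control, was 0.988 (95% counting interval 0.389 to 2.51), so a difference was not detectable at this depth. GAS6 had 5 to 9 counts per control library and 926 to 1244 counts per knockdown library. These are 0.308 ± 0.0842 and 50.5 ± 2.32 CPM (log2 fold change 7.34 ± 0.19, adjusted p = 1.58e-26). GAS6 passed the filter through the knockdown libraries alone, so its entry into the test required the higher level there. PROS1 had at most 7 counts in any library.

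The collagen receptors were both lower. DDR1 (chr6:30876421-30900156), which collagen activates slowly, had the highest level of all these receptors in every library, at 520.2, 501.4, 548.9 and 506.9 CPM in control and 433.6, 448.2, 414.9 and 435.3 CPM in knockdown. The groups did not overlap although the fall was small, -0.26 ± 0.037 on the log2 scale (adjusted p = 2.46e-07). DDR2, the fibrillar-collagen receptor of mesenchymal cells, was at 1.34 ± 0.114 CPM in control and 0.798 ± 0.138 CPM in knockdown (log2 fold change -0.73 ± 0.14, adjusted p = 0.00386). With the median change of its 50 nearest tested genes (-0.26) subtracted, DDR2 lost the call (-0.47, adjusted p = 0.0523). With 20 neighbours that median was -0.15, and no fit was run with it.

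The class III receptors, which dimerise on cytokine-like ligands, are best known from blood, stromal and pigment cells. CSF1R (chr5:150053291-150113372), the receptor of CSF1 and IL34 in macrophages, was at 73.9, 69.7, 76.3 and 69.9 CPM in control and at 62.8, 62.1, 55.0 and 58.8 CPM in knockdown (log2 fold change -0.28 ± 0.054, adjusted p = 8.76e-06). PDGFRB (chr5:150113837-150155872), the PDGF receptor of pericytes and fibroblasts, was at 0.366, 0.318, 0.570 and 0.388 CPM in control and at 2.81, 3.32, 2.19 and 3.01 CPM in knockdown (log2 fold change 2.78 ± 0.21, adjusted p = 2.99e-11). PDGFRB passed the filter on low counts through the knockdown libraries alone, so its entry into the test already required the higher level there. It remained a low-level gene, with 36 counts in all control libraries and 255 in all knockdown libraries. Summed fibroblast markers were at 5.68 to 7.12 CPM in control and 9.05 to 9.76 CPM in knockdown. Of 7 listed markers LUM had no row and 3 were tested, with 1 called higher, 1 lower and 1 not called. COL3A1, the higher one, went from 0.0222 to 4.32 CPM, and the median log2 fold change of the 3 was -0.07. Summed haematopoietic markers were at 1.85 to 3.04 and 1.49 to 2.09 CPM, with 3 of 7 tested, 2 called lower and 1 higher. CD3E had no row, and SPI1 and PTPRC had no more than 3 counts. The part of other cell types in these values was not tested. PDGFRA had no counts in control and 1, 1, 0 and 3 in knockdown, and KIT had 1, 0, 0 and 0 against 4, 4, 3 and 2.

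Of 16 listed ligands of the class III, VEGF and angiopoietin receptors, 12 were tested, 7 fell, 4 rose and CSF1 did not pass (log2 fold change 0.01, adjusted p = 0.952). That is 91.7% called, beside 77.1% of all genes (37.7% lower and 39.4% higher). KITLG, FLT3LG and VEGFC passed the filter through the control libraries alone, and ANGPT1 through the knockdown libraries alone. The share called is therefore partly set by the filter. KITLG (stem cell factor), the ligand of KIT, had 7031 to 9299 counts per control library and 7 or 8 per knockdown library. It was at 386.0 ± 35.0 CPM in control and 0.340 ± 0.0505 CPM in knockdown (log2 fold change -10.14, adjusted p = 1.08e-17), and it passed the filter through the control libraries alone. Of the PDGF genes, PDGFB went from 93.9 ± 2.79 to 9.74 ± 0.881 CPM (log2 fold change -3.27, adjusted p = 2.9e-25), and PDGFA from 0.838 ± 0.258 to 52.4 ± 3.13 CPM (5.95, adjusted p = 4.03e-25). Of the per-length level summed over PDGFA to PDGFD, PDGFB made up 86.4% ± 0.719 in control and 14.4% ± 1.46 in knockdown, and PDGFA 0.696% ± 0.201 and 70.1% ± 2.29. PDGFC was at 2.57 and 7.06 CPM (log2 fold change 1.46). The receptors of these PDGF chains, PDGFRA and PDGFRB, stayed at or below 3.32 CPM in every library.

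**Figure D2:**
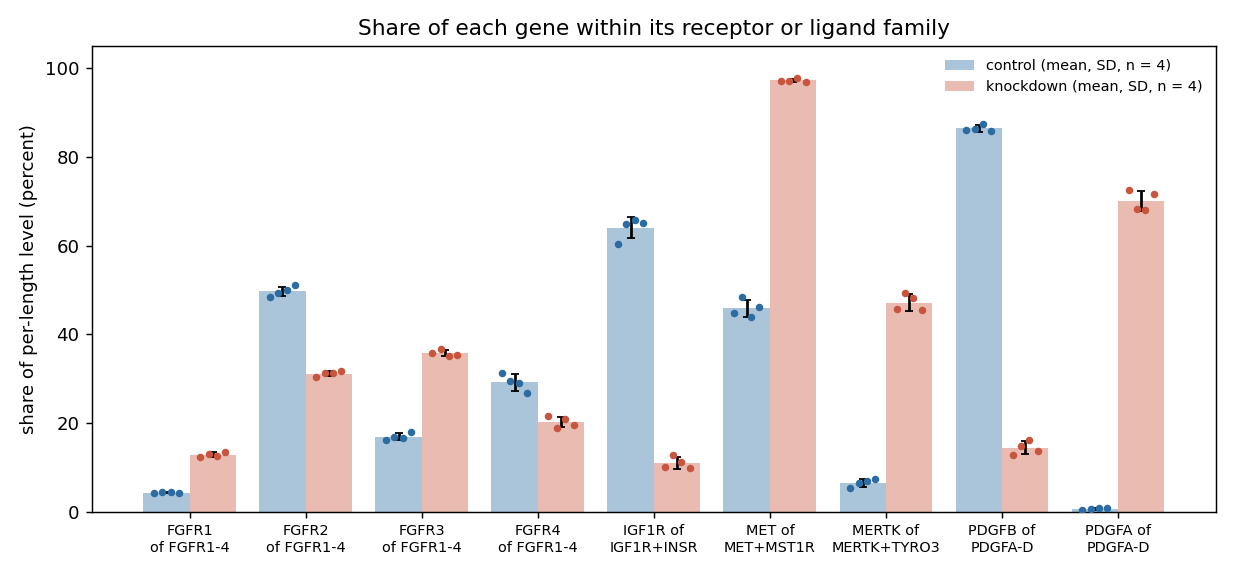
Share of the per-length level (TPM scale, percent) that each gene holds within its receptor or ligand family, in control (blue) and FOXA1 knockdown (orange). Bars are means, error bars are the SD over 4 libraries and points are libraries. IGF1R went from 64.1% to 11.0% of IGF1R plus INSR, MET from 45.8% to 97.2% of MET plus MST1R, and PDGFA from 0.696% to 70.1% of the PDGF genes.

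The VEGF receptors and the angiopoietin receptors, which are known from endothelium, were low throughout. FLT4 (VEGFR3; chr5:180601506-180649624) had 4, 7, 4 and 4 counts in control and 21, 20, 16 and 21 in knockdown, or 0.216 ± 0.0684 and 0.875 ± 0.0739 CPM (log2 fold change 1.99 ± 0.20, adjusted p = 2.96e-06). FLT1 (VEGFR1) was below the filter, with 0, 1, 1 and 0 counts in control and 5, 9, 10 and 8 in knockdown. Its ratio was 15.8 (95% counting interval 4.03 to 136.2). KDR (VEGFR2), whose promoter is printed above, had no counts in control and 7, 3, 3 and 0 in knockdown, at least 1.01-fold higher against a floor of 3 counts per library. TIE1 had 10, 5, 2 and 7 counts against 6, 7, 6 and 4, and TEK 2, 0, 1 and 1 against 4, 1, 3 and 0. The summed endothelial markers were at 38.6 to 41.8 CPM in control and 21.0 to 23.5 CPM in knockdown. Of the 6 markers 3 were tested, with 2 called lower and 1 higher. VWF was at 5.22 and 0.845 CPM, and CDH5, at 16.1 and 20.1 CPM, went against the sum. These 2 genes together do not account for the fall of the sum. The part of the endothelial markers in the receptor levels was not tested. VEGFC, the ligand of FLT4, fell from 4.47 to 0.169 CPM (log2 fold change -4.68, adjusted p = 6.63e-15). ANGPT1, the ligand of TEK, rose from 0.467 to 5.41 CPM (3.52, adjusted p = 8.23e-16). VEGFC passed the filter through the control libraries alone, and FLT4 and ANGPT1 through the knockdown libraries alone. In each case that is the group where the gene is high.

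The WNT-binding receptors included the largest rise. PTK7, a receptor with an inactive kinase domain that acts in planar cell polarity (ENSG00000112655.16, chr6:43076268-43161719), was at 2.06, 1.91, 1.95 and 1.68 CPM in control and at 33.9, 33.4, 33.4 and 34.4 CPM in knockdown. The 4 knockdown libraries lay within about 1 CPM of each other and the log2 fold change was 4.15 ± 0.062 (adjusted p = 3.12e-24). ROR1, a WNT5A receptor, was at 0.550, 0.499, 0.997 and 0.646 CPM in control and at 2.04, 1.76, 1.22 and 1.43 CPM in knockdown (log2 fold change 1.27 ± 0.27, adjusted p = 5.21e-05). Its groups were closer together, control 3 being the highest control and knockdown 3 the lowest knockdown library. RYK, which binds WNT through a WIF domain, was at 63.9, 62.0, 61.5 and 61.2 CPM in control and at 58.3, 56.7, 61.8 and 62.7 CPM in knockdown. These groups overlapped (log2 fold change -0.05, adjusted p = 0.257), and the sign turned under upper-quartile (0.0046) and library-size scaling (0.029). ROR2 had no counts in control and 1, 1, 3 and 1 in knockdown. PTK7 made up 2.62% ± 0.177 of the per-length level of these 4 genes in control and 32.7% ± 0.816 in knockdown, the remainder being almost all RYK.

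Of the 4 atypical transmembrane kinases, LMTK2 and LMTK3 fell and AATK and STYK1 did not pass. LMTK2, a kinase of endosomal trafficking, was at 86.5, 92.8, 92.0 and 88.7 CPM in control and at 59.7, 66.2, 59.9 and 66.4 CPM in knockdown (log2 fold change -0.51 ± 0.049, adjusted p = 1.2e-10). LMTK3 was at 28.0 ± 1.87 and 17.9 ± 0.968 CPM (-0.64 ± 0.061, adjusted p = 5.45e-10). AATK was at 4.36 ± 0.381 and 4.14 ± 0.418 CPM (-0.07, adjusted p = 0.598), with a sign that turned under library-size scaling (0.015). AATK shares 138 exon bases with BAIAP2 on the opposite strand, a gene with 1382 counts on average, and reads of that stretch cannot be told apart without strand. STYK1 was at 4.45 ± 0.582 and 4.73 ± 0.706 CPM (0.09, adjusted p = 0.509).

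The remaining receptors were at the limit of detection. RET, the receptor of GDNF-family ligands, had 0, 1, 0 and 0 counts in control and 4, 4, 3 and 0 in knockdown, a ratio of 10.9 (95% counting interval 1.58 to 467.9). KIT, given above, had a ratio of 12.8 (1.93 to 545.9). LTK had 4, 4, 1 and 2 counts in control and none in knockdown, and its relative ALK had 1 count in 1 library of each group. The neurotrophin receptors NTRK2 and NTRK3 had at most 2 and 1 counts in any library, and MUSK, the receptor kinase of the agrin pathway, at most 1. With no filter on low counts, LTK was called lower and FLT1, KDR, PDGFRA, KIT, RET and ROR2 higher, which would bring the higher calls to 15. DESeq2 called 4 of these 7, LTK, FLT1, KDR and KIT. Neural markers summed to 3.66 to 4.03 CPM in control and 17.4 to 19.5 CPM in knockdown, through TUBB3 at 1.03 and 17.5 CPM. Of the 6 markers 2 were tested, and the other one was called lower by at least 2-fold. SNAP25 and SOX10 had at most 3 counts. The part of the neural markers in these low counts was not tested.

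Ligands of the neurotrophin, RET, ALK and agrin receptors had 7 of 15 genes tested, of which 3 fell, 3 rose and GDF15 did not pass (85.7% called, beside 77.1% of all genes). PTN and NELL2 passed the filter through the knockdown libraries alone and NRTN through the control libraries alone. The share called is therefore partly set by the filter. PTN, listed here with the ALK ligands, had no counts in control and 54 to 81 counts in knockdown. That is at least 22.4-fold higher against the floor of 3 counts per library. MDK, its close relative, was at 2.07 and 9.03 CPM (log2 fold change 2.12). AGRN (agrin) fell from 786.4 to 578.3 CPM (-0.44, adjusted p = 3.64e-11), and PSPN, a RET-pathway ligand, from 1.94 to 0.778 CPM (-1.32, adjusted p = 1.09e-06).

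Over all lists, ligands, co-receptors, adaptors and proteases had 64 of 111 genes tested, with 21 lower, 38 higher and 5 not called (92.2% called, beside 77.1% of all genes, median log2 fold change 0.66). Of 23 co-receptors, which include the heparan sulfate carriers that hold FGFs and other ligands, 16 were tested, 6 fell and 10 rose, where 37.7% of all genes were lower and 39.4% higher. GPC6 had 116 to 133 counts in control and none in knockdown, at least 37.2-fold lower against the floor. GPC5 went from 3.07 to 0.220 CPM (log2 fold change -3.81), GPC2 from 1.67 to 5.66 CPM (1.75) and GPC3 from 0.192 to 2.65 CPM (3.74). Of these 64 genes, 13 passed the filter through the knockdown libraries alone and 7 through the control libraries alone (GPC5 and GPC6 among them, and GPC3 among the former), so the counts of calls are partly set by the filter.

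**Figure D3:**
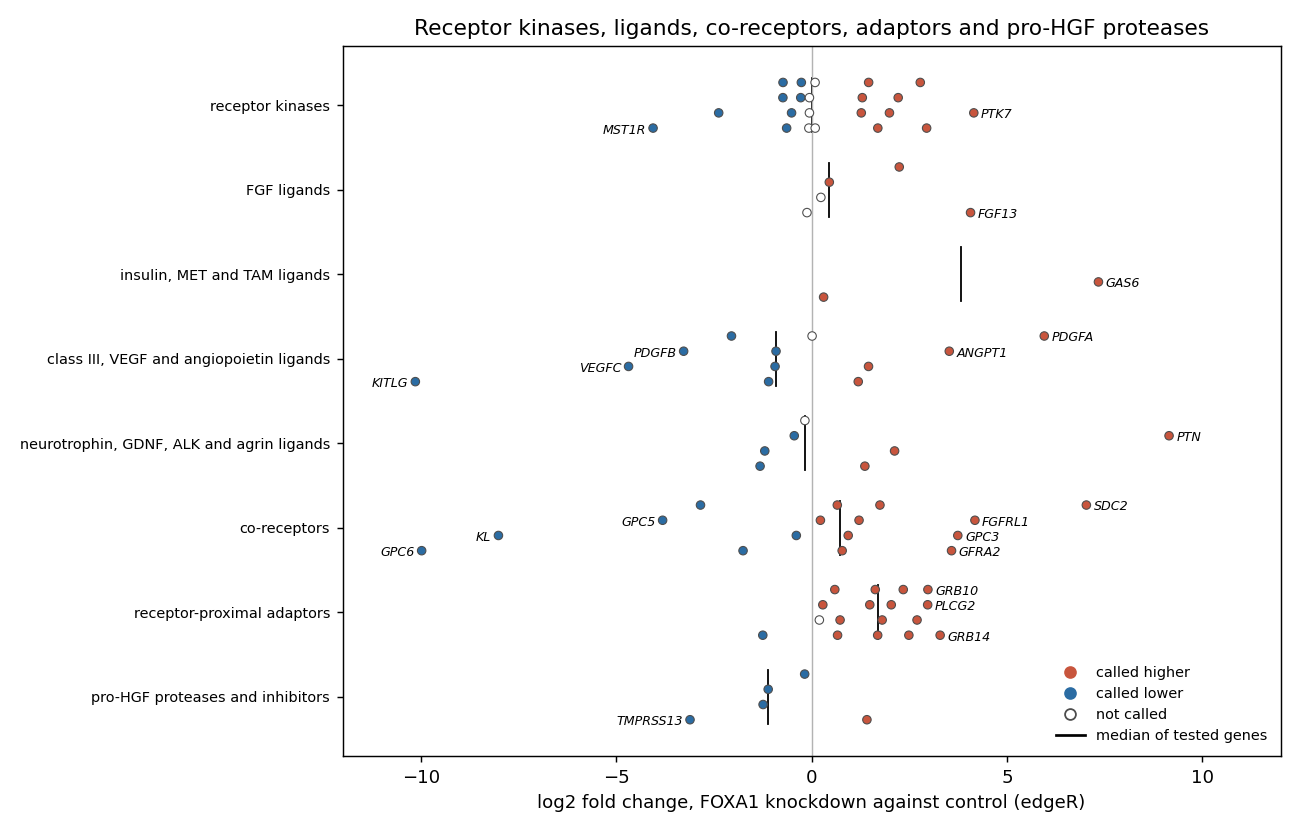
Fitted log2 fold change, FOXA1 knockdown against control, of every tested gene of the receptor kinase set and of the 7 pathway lists. Points are genes (orange called higher, blue called lower, open not called), black lines are list medians, and genes beyond about 3 on the log2 scale are named. The fitted values of PTN and SDC2, at 0 counts in control, and of GPC6, at 0 in knockdown, depend on the prior count of the fit. The adaptor list has 15 of 17 points to the right of 0 and called.

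To compare receptors with each other, counts were divided by the exon length of each gene and scaled to 1000000 per library (TPM scale). This scale has no TMM factor, so it serves for order and not for change. In control, DDR1 led at 196.1 ± 6.37, followed by CSF1R at 48.5 ± 1.77, LMTK2 at 33.9 ± 0.926, MST1R at 28.2 ± 1.29, RYK at 26.6 ± 0.639 and FGFR2 at 26.3 ± 0.726 (SD, n = 4). RYK and FGFR2 differed by less than the SD of either. In knockdown, DDR1 still led at 175.5 ± 7.88, and MET, at 23.9 ± 1.29 in control and in seventh place, was second at 63.0 ± 1.92. FGFR3 moved from place 11 (8.95 ± 0.478) to place 4 (31.1 ± 2.04). MST1R moved from place 4 to place 17 (1.81 ± 0.238) and IGF1R from 12 to 19. PTK7 went from place 18 (0.725 ± 0.0580) to place 10 (13.8 ± 0.203), and MERTK from 17 to 11. The order below DDR1 depends on the length used. With the longest transcript, CSF1R stayed at place 2 in control, followed by FGFR2, RYK, LMTK2 and MST1R, while in knockdown MET was again second and FGFR3 was at place 6. MST1R then moved from place 6 to 17, IGF1R from 12 to 19, PTK7 from 18 to 10 and MERTK from 17 to 12. DDR1 made up 41.7% ± 0.653 of the summed level of the receptor kinases in control and 35.2% ± 0.452 in knockdown, or 55.1% and 47.7% with the longest transcript as the length.

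**Figure D4:**
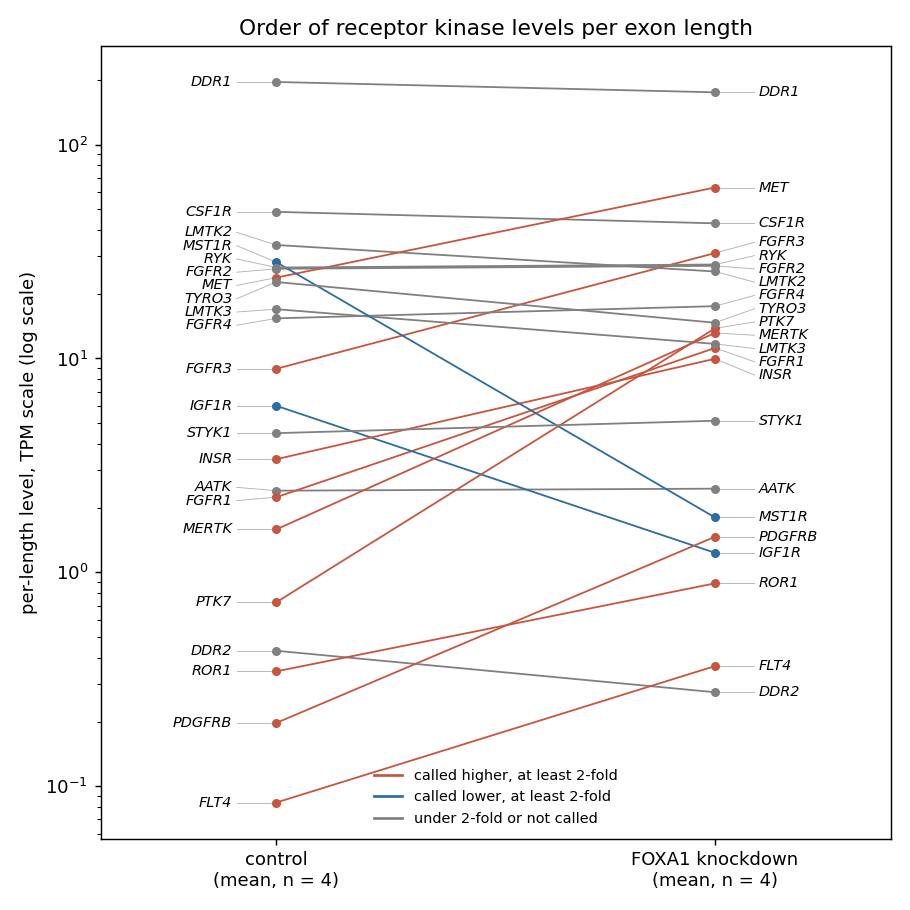
Mean per-length level (TPM scale, log axis, n = 4) of each tested receptor kinase in control and in FOXA1 knockdown, joined by a line. Orange lines were called higher and blue lines lower by at least 2-fold, and grey lines are smaller or not called. DDR1 is at the top in both groups, MET rises to second place, and MST1R and IGF1R drop below 2 on this scale.

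Each receptor kinase was also set beside the median log2 fold change of its 50 nearest tested genes on the chromosome. These medians ran from -0.54 to 0.63. Of the 22 receptor kinases, 11 lay at least 1 on the log2 scale from their neighbours' median, and with 20 neighbours also 11. All 11 that changed at least 2-fold are those genes. MST1R, at -4.06, had neighbours at -0.12, and PTK7, at 4.15, had neighbours at 0.14. TYRO3, at -0.73, had neighbours at -0.54, and with that regional median subtracted it was at -0.19 (adjusted p = 0.000839). FGFR4 had neighbours at 0.63, and with the regional median subtracted its value turned to -0.54 (adjusted p = 5.56e-09). CSF1R went the other way from its neighbours, which were at 0.56, and was at -0.83 after subtraction. Of the other genes that had not passed, FGFR2 (-0.13, adjusted p = 0.0143), RYK (-0.34, adjusted p = 1.3e-07) and STYK1 (0.39, adjusted p = 0.00699) passed the test once the regional median was subtracted, and AATK did not (adjusted p = 0.968). The median itself moved by up to 0.47 between 50 and 20 neighbours. It went from -0.30 to 0.00065 for STYK1, from -0.54 to -0.31 for TYRO3 and from -0.12 to -0.60 for LMTK2. For FGFR4 it stayed at 0.63. The subtraction was fitted with 50 neighbours only and took the median as free of error, so these calls depend on that choice.

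Some receptor kinases lie next to each other. CSF1R and PDGFRB are 464 bp apart on chromosome 5 and on the same strand, and PDGFRB rose (2.78) while CSF1R fell (-0.28). LTK and TYRO3 lie 43787 bp apart on chromosome 15 and are on opposite strands; TYRO3 fell, and the counts of LTK were 11 in all control libraries and 0 in all knockdown libraries. PDGFRA, KIT and KDR follow each other on chromosome 4 with gaps of 359670 and 337543 bp. Each of the 3 had at most 1 count in control, and 5, 13 and 13 counts over the knockdown libraries.

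**Figure D5:**
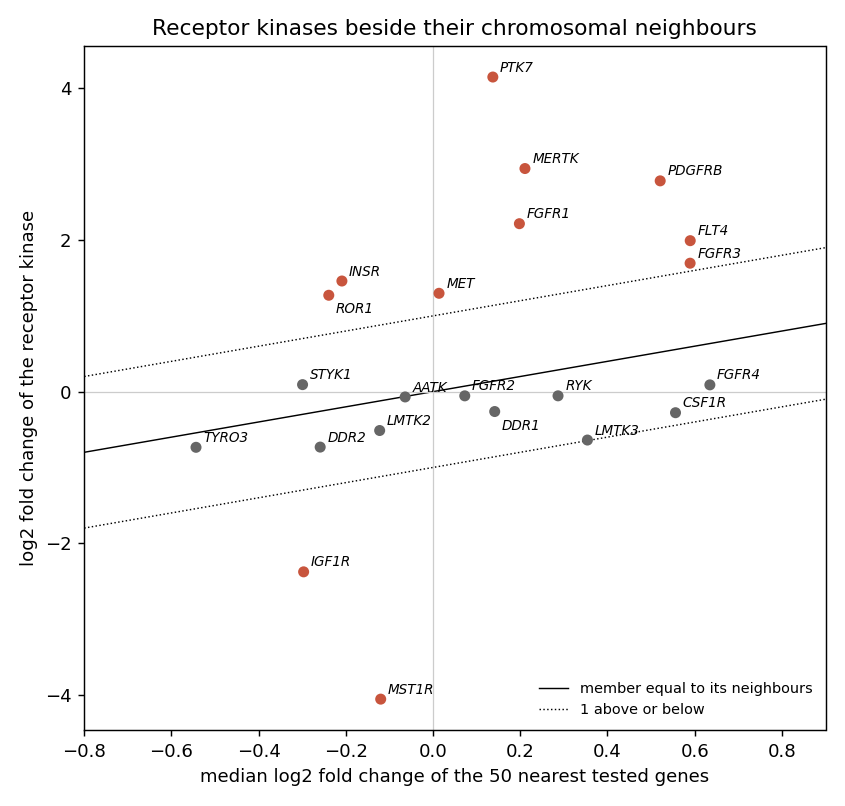
Log2 fold change of each tested receptor kinase (vertical axis) against the median log2 fold change of its 50 nearest tested genes (horizontal axis). The solid line marks equality, the dotted lines 1 above and 1 below it, and orange points lie at least 1 from their neighbours. MST1R and IGF1R lie below the band, and the 9 genes called higher lie above it.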

How the data were processed

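RNA of 4 control and 4 FOXA1 knockdown SKBR3 cultures or preparations was sequenced as paired-end reads of 101 bp, per the labels' protocols. The authors deposited whole-number values per gene, treated here as rounded estimated counts because Salmon 1.9 is among the tools in the submitters' processing notes, beside FastQC, DESeq2 (given as 3.16) and hg38, with no role or order stated. The annotation release and the use of strand are not given in the sources used here. Reads of overlapping genes may therefore be shared.

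The receptor kinases, gene lists and tests were chosen with earlier results of these data known. The counts, rounded to whole numbers as deposited, were tested in R 4.3.3 with edgeR 4.0.16: filterByExpr (minimum of 10 counts, total of 15) kept 16430 genes and removed 14004, TMM factors were 0.965 to 1.04, and glmQLFit with robust estimation and glmQLFTest were used, p-values being adjusted by Benjamini-Hochberg across the 16430 genes (threshold 0.05). Fitted fold changes use a prior count of 0.125, and standard errors come from log2 CPM with 0.5 counts added. No replicate block was fitted. Where a group had no counts, a fold is a bound against 3 counts per library, and where it had few, the ratio has an exact conditional 95% counting interval. Both cover counting error only.

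Exon lengths and positions came from GENCODE 29 on GRCh38, matched by Ensembl identifier for 29358 of 30434 rows (96.5%). The rule gave full values for receptor kinases past the threshold and at least 2-fold changed and for the 6 with the highest per-length level, and named up to 3 rises and 3 falls per pathway list (called, averaging 20 counts or more, no overlap). Further list genes named in the text were chosen after their values were seen. The tests were tested on simulated data. The alternatives covered scaling (RLE, upper quartile, library size), the filter, the test (limma voom from limma 3.58.1, or DESeq2 1.42.0), no robust estimation, a replicate block, a threshold of 0.01, subtraction of the regional median, leaving out each library, the longest transcript as length and 20 neighbours. The GGGCGG search was added after seeing the data.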

Additional observations from a re-analysis of the deposited data

Results flagged for a closer look

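In groups of 4 libraries, 102 in all, the gap of the highest or lowest library to its nearest neighbour was set against the range of the group. In 9 groups that ratio was above Dixon's critical value, where chance gives about 5.1. They do not fall on 1 library.

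Among the receptor kinases, control 2 was low for MST1R (40.2 CPM against 43.8 to 44.0, ratio 0.956) and high for FLT4 (0.318 CPM against 0.172 to 0.190, ratio 0.879). Neither value came near the knockdown libraries. Control 3 was low for KITLG (333.9 CPM against 400.7 to 408.8, ratio 0.893) and for GPC3 (0.0950 CPM against 0.215 to 0.229, ratio 0.899). Control 4 was high for FGF12 (0.689 CPM against 0.272 to 0.285, ratio 0.970) and low for GRB10 (31.5 CPM against 32.8 to 32.9, ratio 0.958). Control 2 was also low for IRS1 (13.4 CPM against 14.5 to 14.7, ratio 0.841). In knockdown, library 1 was high for FGF12 (2.55 CPM against 1.53 to 1.64, ratio 0.891) and library 2 low for FGF13 (3.56 CPM against 4.46 to 4.58, ratio 0.884).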

How the results depend on the processing

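Of 414 values of single receptor kinases under the alternatives, 402 kept their direction and side of the threshold, and none of the 17 calls was lost when a library was left out. The signs that turned were all of genes that did not pass: AATK under library-size scaling (0.015), FGFR2 (0.0043 and 0.029) and RYK (0.0046 and 0.029) under upper-quartile and library-size scaling, which moved the median of all genes by 0.059 and 0.084, and FGFR4 with the regional median subtracted (-0.54). With no filter on low counts, 15 receptor kinases were higher, 15 of them at least 2-fold, and FGF ligands gave 1 lower and 6 higher, neurotrophin-group ligands 6 higher and proteases 2 higher. DESeq2 gave 5 higher FGF ligands, 5 higher neurotrophin-group ligands and 2 higher proteases. With a mean of at least 50 counts, neurotrophin-group ligands gave 1 lower and 1 higher, and co-receptors 5 higher, since fewer genes were tested. Leaving out a library gave 0 to 1 lower FGF ligands (1 without control 3 or any knockdown library). With the longest transcript, DDR1 held 55.1% and 47.7% of the receptor kinase level, and within the FGF receptors FGFR2 held 54.1% and 35.3% and FGFR3 11.6% and 25.5% (control and knockdown). Replicate numbers did not pair the libraries (same-number correlations 0.02, 0.06, -0.03 and 0.00), and the replicate block left 8 lower and 9 higher calls. Depth limits the 15 receptor kinases with at most 10 counts.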
